A study of Mus musculus with 8 samples.

Results

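The RNA of haematopoietic stem cells from wild-type mice was described from 4 libraries, 1 from each of 4 mice, out of the 8 libraries of the series. They were chosen by genotype label alone, as the animals labelled WT control (WT), and no measured value entered the choice. All 4 mice were of the C57BL6 strain, and the stem cells were sorted by flow cytometry from bone marrow at the series' single time point, 2 weeks after induction of a knockout. The other 4 mice of the series were Kdm4a/b/c triple knockouts and enter no value given here. The sort markers, the age of the mice, the way the knockout was induced, whether the WT mice received the same induction, and any allele or Cre that they carry are not stated in the labels. Each library came from 1 labelled mouse, and no pooling is stated.

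Haematopoietic stem cells are rare, self-renewing cells of the marrow from which every blood lineage arises. In adult marrow most of them rest outside the cell cycle, held in place by niche cells that present stem cell factor to the receptor KIT. Transcription factors such as ERG, RUNX1, TAL1, GATA2 and the HLF and MECOM proteins maintain the stem cell state, while lineage factors such as PAX5, CEBPE and TBX21 act further down the B cell, granulocyte and T helper paths.

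The deposited values were counts of reads per gene symbol, and the totals were 5902042, 3594315, 5086878 and 6044289 in mice 1 to 4. Levels are given as CPM, the count of a gene for every 1000000 counts of its library, as mean ± SD over the 4 mice (n = 4). Levels of different genes are set against each other per kilobase of exon (CPM per kb), since longer transcripts give more reads. In total RNA from a sorted population, fewer cells with a transcript and less transcript per cell cannot be told apart. The limit that a count of 0 allows, 3 counts, was 0.508, 0.835, 0.590 and 0.496 CPM in mice 1 to 4. A level of 10 CPM rested on 59, 36, 51 and 60 counts, and in mouse 2 its exact 95% Poisson interval ran from 7.01 to 13.9 CPM. The reads were amplified and carry no molecular identifiers, so this interval and floor cover counting error only.

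Of 24222 gene symbols, 10907 (45.03%) were at 1 CPM or more in all 4 mice and are called expressed below; 10544 of them are protein coding. A further 7315 symbols had no count in any mouse, and 10287 had 3 counts or fewer in every mouse. The expressed genes had a median of 32.97 CPM and of 10.4 CPM per kb, with quartiles of 4.24 and 24.4 CPM per kb. The counts were concentrated in few genes: 65 genes at 1000 CPM or more carried 16.6% of counts, and 2320 genes between 100 and 1000 CPM carried 57.3%. The number of genes that together carried 50% of the counts was 801, 844, 834 and 879 in mice 1 to 4, so the curves of cumulative share nearly coincide. Rn45s, the ribosomal RNA precursor, was the largest single entry and took 4.85%, 3.17%, 4.42% and 2.38% of the counts.

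**Figure D1:**
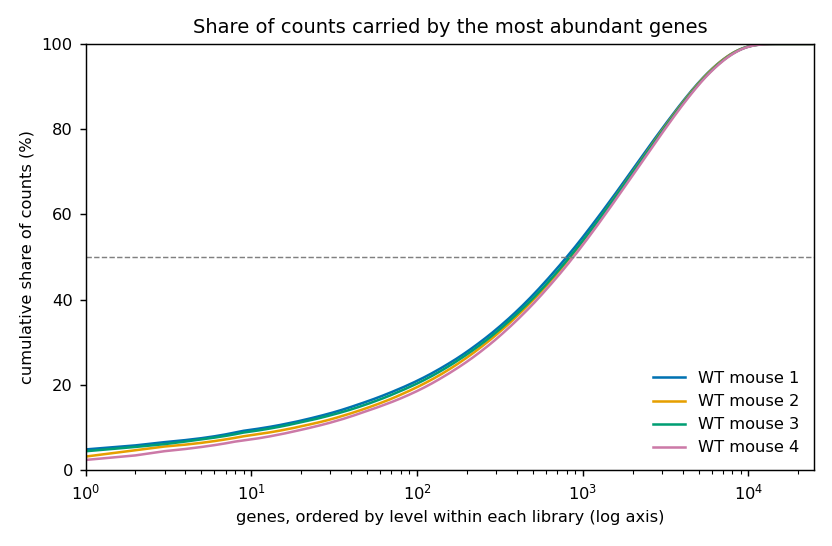
Cumulative share of counts (%, y axis) against genes ordered by level within each library (log x axis), 1 line per WT mouse, with a dashed line at 50%. The 4 lines cross 50% between 801 and 879 genes.

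By CPM the 12 highest genes outside ribosomal RNA were Malat1, Npm1, Hsp90ab1, Lars2, B2m, Ncl, Serinc3, Pabpc1, Prrc2c, Car2, Eif3a and Serbp1. Malat1, a nuclear long noncoding RNA, stood at 9528, 15007, 10135 and 9918 CPM in mice 1 to 4. It was highest in mouse 2, and the other 3 mice lay close together. Npm1, which encodes the nucleolar chaperone nucleophosmin, stood at 7619.7, 8632, 6632 and 10658 CPM, highest in mouse 4. Ncl, which encodes nucleolin, another nucleolar protein, stood at 4209 ± 198 CPM. Serinc3 (4098 ± 199 CPM) encodes a membrane protein of the serine incorporator family, and Prrc2c (2496 ± 95.5 CPM), Eif3a (2218 ± 138 CPM) and Serbp1 (2204 ± 98.3 CPM) encode RNA-binding or ribosome-associated proteins.

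Per kilobase the order changed. B2m, the invariant light chain of MHC class I, came first at 5011 ± 720.0 CPM per kb, followed by Npm1 at 4129 ± 847, Hsp90ab1, a cytosolic HSP90 chaperone, at 1848 ± 143, and Malat1 at 1596 ± 370.3. B2m lay at 4462, 3721, 3942 and 5113 CPM in mice 1 to 4, with 1.37-fold between the highest and the lowest mouse. Next in order were Pabpc1, the cytoplasmic poly(A)-binding protein, at 1443 ± 131 CPM per kb, the ribosomal protein gene Rpl4 at 1404 ± 131, Car2 at 1279 ± 81.4 and the noncoding snoRNA host Gas5 at 1255 ± 187. Car2 encodes carbonic anhydrase 2, an enzyme that is also abundant in red cells. Its values of 2196, 2134, 2382 and 2438 CPM differed by 1.14-fold at most. Eef1a1 (1154 ± 97.3), Lars2 (1139 ± 353), Serinc3 (1113 ± 54.1) and Anp32b (1034 ± 125) completed the 12. Serinc3 and Anp32b, a nuclear acidic phosphoprotein, had SDs that overlapped, so their order is not separated by the spread among mice.

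Genes with near-identical copies may be listed too low, since the counting tool leaves out reads with several matches. For Eef1a1, the translation elongation factor, 57.9% of 50-base windows of its transcripts also occur exactly in a transcript from elsewhere in the genome, and for Npm1 the share is 40.9%. The shares were 27.2% for Gapdh, 14.2% for Actb, 67.5% for Hba-a1 and 0% for B2m and Kit. Of the expressed genes, 742 had over 10% of windows shared, and their levels are uncertain in that direction. All 6 globin symbols were listed at 0 in every mouse, so erythroid content is described from other genes.

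Expressed and silent genes differed in the base composition of their promoters. A promoter is taken here as the RefSeq window from 250 bases before to 50 after the most upstream start of a gene (build GRCm38.p6), and 16957 symbols had one. A promoter is called CpG-rich where its ratio of observed to expected CpG was at least 0.6. CpG-rich promoters made up 11.1% of the genes at 0, 32.5% of genes below 1 CPM, 57.9% at 1 to 10 CPM, 77.1% at 10 to 100 CPM, 82.8% at 100 to 1000 CPM and 90% of genes at 1000 CPM or more. Without the olfactory and vomeronasal receptors, keratins and defensins, the share among genes at 0 was 14.97% of 3347 promoters. The letters TATAAA, lying wholly between 45 and 16 bases before the start on the coding strand, were found in 6.06% of promoters of genes at 0 and in 1.15% of those of expressed genes, against 2.86% of all. Within the genes at 100 to 1000 CPM, the median level was 41.1 CPM per kb for 1500 CpG-rich and 45.2 for 312 CpG-poor promoters. These are descriptions over genes, which are not independent replicates, and no test was run.

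The contrast is shown by the 250 bases before the start of Hlf, an abundant stem cell transcription factor gene, and of Cd3e, a T cell receptor component at 0 in all 4 mice. The capitals mark every CpG. Sequences are RefSeq's for GRCm38.p6, 5′ to 3′ towards the gene. The Hlf window (chr11:90390918-90391167, minus strand) holds 26 CpG and the Cd3e window (chr9:45009612-45009861, minus strand) holds 7.
Hlf: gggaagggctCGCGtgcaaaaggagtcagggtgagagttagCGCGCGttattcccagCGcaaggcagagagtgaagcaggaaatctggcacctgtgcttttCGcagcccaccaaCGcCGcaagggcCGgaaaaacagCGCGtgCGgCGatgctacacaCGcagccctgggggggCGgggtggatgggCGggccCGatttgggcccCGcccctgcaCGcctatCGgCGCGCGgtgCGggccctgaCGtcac
Cd3e: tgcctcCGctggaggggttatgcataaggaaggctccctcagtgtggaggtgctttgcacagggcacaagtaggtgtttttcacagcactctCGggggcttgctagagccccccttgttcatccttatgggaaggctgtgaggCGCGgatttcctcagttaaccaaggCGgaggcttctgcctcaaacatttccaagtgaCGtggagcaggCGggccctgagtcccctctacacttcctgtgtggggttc

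The listed transcription factors of the stem cell programme were all detected. All 53 listed factors were expressed, with a median of 30.5 CPM per kb against 10.4 for all expressed genes. Erg, an ETS factor required for stem cell maintenance, was the highest at 609 ± 122 CPM per kb. Its values were 2331, 2252, 1482 and 2374 CPM in mice 1 to 4, with mouse 3 below the other 3 mice. Lmo2, the bridging subunit of the TAL1 and GATA complex, followed at 389.9 ± 63.1 CPM per kb, and Hlf, a PAR bZIP factor that marks stem cells, at 262 ± 26.7. Hlf lay at 1263, 1595, 1481 and 1569 CPM, with mouse 1 lowest. Egr1, an immediate early zinc finger factor, stood at 223 ± 101 and Myb, a regulator of proliferating progenitors, at 217 ± 20.8 CPM per kb.

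Within families of transcription factors, 1 or 2 members carried most of the signal. Of the GATA family, Gata2, the stem cell member, made up 81.1% of the family's summed CPM per kb, at 113, 95.4, 96.7 and 89.6 CPM per kb in mice 1 to 4. Gata3, the T cell and innate lymphoid factor, stood at 13.7 ± 4.2 and Gata1, the erythroid and megakaryocyte factor, at 9.16 ± 1.81 CPM per kb. Gata2 exceeded Gata3 and Gata3 exceeded Gata1 in all 4 mice, and Gata4, Gata5 and Gata6, factors of heart and gut, did not pass 2 counts in any library. Of the RUNX genes, Runx1, the definitive blood factor, held 74.7 ± 5.25 and Runx2, best known as the master factor of bone, held 56.3 ± 3.7 CPM per kb, 38.8% of the family. Runx2 values were 363, 420.1, 397 and 418 CPM, lowest in mouse 1, while Runx3 was at 14.1 ± 2.72 CPM per kb.

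Myc made up 76.4% of its family at 217 ± 31.6 CPM per kb, Mycn held 66.8 ± 3.83, and Mycl did not pass 1 count in any library. Ikzf1 (Ikaros) led its family at 91.6 ± 8.57 CPM per kb, above Ikzf2 (Helios) at 23.3 ± 3.76, Ikzf5 at 9.22 ± 1.7 and Ikzf4 at 2.32 ± 1.08, and the B cell member Ikzf3 (Aiolos) reached at most 3 counts. Among FOXO factors, which act in stem cell quiescence and stress resistance, Foxo3 at 19.8 ± 1.87 CPM per kb exceeded Foxo1 at 9.22 ± 2.11 and Foxo4 at 4.88 ± 1.42 in all 4 mice, and Foxo6 was at 0.318 ± 0.469 CPM. Of the Cebp genes, grouped here by symbol alone, Cebpz (56.4 ± 6.23 CPM per kb) and Cebpg (33.6 ± 2.6) were high. Cebpb (3.9 ± 1.24), the granulocyte and monocyte factor Cebpa (1.44 ± 0.64) and Cebpd (0.245 ± 0.166) were low. The late granulocyte factor Cebpe was at 0. The inhibitors of DNA binding were near the floor. Id1 stood at 0.169, 6.68, 0 and 0.165 CPM in mice 1 to 4 and so was above the 3-count floor in mouse 2 only, Id2 at 0.931 ± 0.839 CPM, Id3 at 0.196 ± 0.149 CPM and Id4 at 0.

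Factors of committed lineages and of other tissues were mostly low. Of 24 lineage-restricted blood factors 8 were expressed, 13 lay between and 3 were at 0, namely the T helper factor Tbx21, Cebpe and the B cell coactivator Pou2af1. The highest of them were Tox (14.2 ± 2.38 CPM per kb), Gata3, Gata1, the melanocyte and mast cell factor Mitf (3.14 ± 0.688) and the erythroid factor Klf1 (3.13 ± 1.27). Klf1 values were 7.46, 4.17, 4.72 and 2.81 CPM, and the B cell factor Pax5 had 1, 0, 0 and 0 counts in mice 1 to 4. Of 28 factors that specify other tissues, 24 had at most 3 counts in every library and only Runx2 and Hnf4a were expressed. Hnf4a, a nuclear receptor of liver and gut, lay at 15.2, 15.3, 26.7 and 15.9 CPM, with mouse 3 highest. Pou5f1, Nkx2-1, Pdx1, Pax3, Foxa1, Cdx2, Olig2, Twist1 and Wt1 were at 0 in all 4 mice, and Pparg (0.952 CPM) and Pax6 (1.16 CPM) lay near the floor.

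The Hox clusters were separated sharply. Of 11 Hoxa genes 7 were expressed, led by Hoxa9 (14.6 ± 3.92 CPM per kb), Hoxa5 (13.7 ± 3.38), Hoxa7 (11 ± 2.66), Hoxa10 (6.26 ± 1.06) and Hoxa3 (5.21 ± 2.06), and their summed level was 130 to 183 CPM. Of 10 Hoxb genes 4 were expressed, with Hoxb3 at 8.9 ± 0.626 CPM per kb, the stem cell reporter gene Hoxb5 at 8.72 ± 1.35 and Hoxb4 at 5.83 ± 2.33, and a sum of 60.1 to 75.1 CPM. None of the 9 Hoxc and 9 Hoxd genes was expressed, and their sums reached at most 1.16 CPM for Hoxc and 1.67 CPM for Hoxd in any mouse.

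Surface genes used in stem cell sorts and reporter genes were described next. The sort markers are not stated, so some of these genes may belong to the gate itself. The list was also drawn up with earlier results known, so the levels are no independent check of the label. Of 18 such genes 16 were expressed, and the other two were Cd48 and Gprc5c. Kit, the stem cell factor receptor, was the highest at 208 ± 11.4 CPM per kb, with 1042, 1099, 1175 and 1055 CPM in mice 1 to 4. Ly6a (SCA-1) lay at 43.2, 30.3, 53.3 and 65.4 CPM and Slamf1 (CD150), a signalling receptor that marks long-term stem cells, at 94.7, 107, 108 and 106 CPM. Slamf1 spread little, while Ly6a was lowest in mouse 2 and highest in mouse 4. Procr (EPCR, the protein C receptor) stood at 31.9, 65.4, 73.7 and 73.8 CPM, lowest in mouse 1. Per kilobase, Kit was followed by Cd27 (63.4 ± 5.39 CPM per kb), Cd9 (55.1 ± 9.73), Ly6a (47.8 ± 14.8) and Slamf1 (38.7 ± 2.35), and Cd34 and Esam stood at 33.7 ± 3.9 and 21.5 ± 4.21.

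Cd48 and Flt3, surface genes that mark progenitors beyond the stem cell, were low, and stem cell reporter genes were mostly expressed. Cd27 and Cd34, given above, were not low. Cd48, which multipotent and committed progenitors carry, lay at 0.339, 7.51, 0.393 and 2.15 CPM in mice 1 to 4, highest in mouse 2. Flt3, the receptor of lymphoid-primed progenitors, lay at 7.46, 6.68, 12.2 and 9.43 CPM. The stem cell reporters Fgd5 (70.2 ± 10.4 CPM), Ctnnal1 (65.6 ± 9.81 CPM), Vwf (196 ± 33 CPM), Tek (73.9 ± 11.3 CPM) and the megakaryocyte integrin Itga2b (52.9 ± 11.7 CPM) were all expressed. Cd82 was at 4.91, 13.1, 6.68 and 3.31 CPM and Thy1 at 7.62, 2.78, 3.15 and 4.8 CPM, and Gprc5c, a marker of dormant stem cells, did not pass the 3-count floor in mice 1 to 3 and lay at 0, 0.278, 0 and 0.827 CPM.

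**Figure D2:**
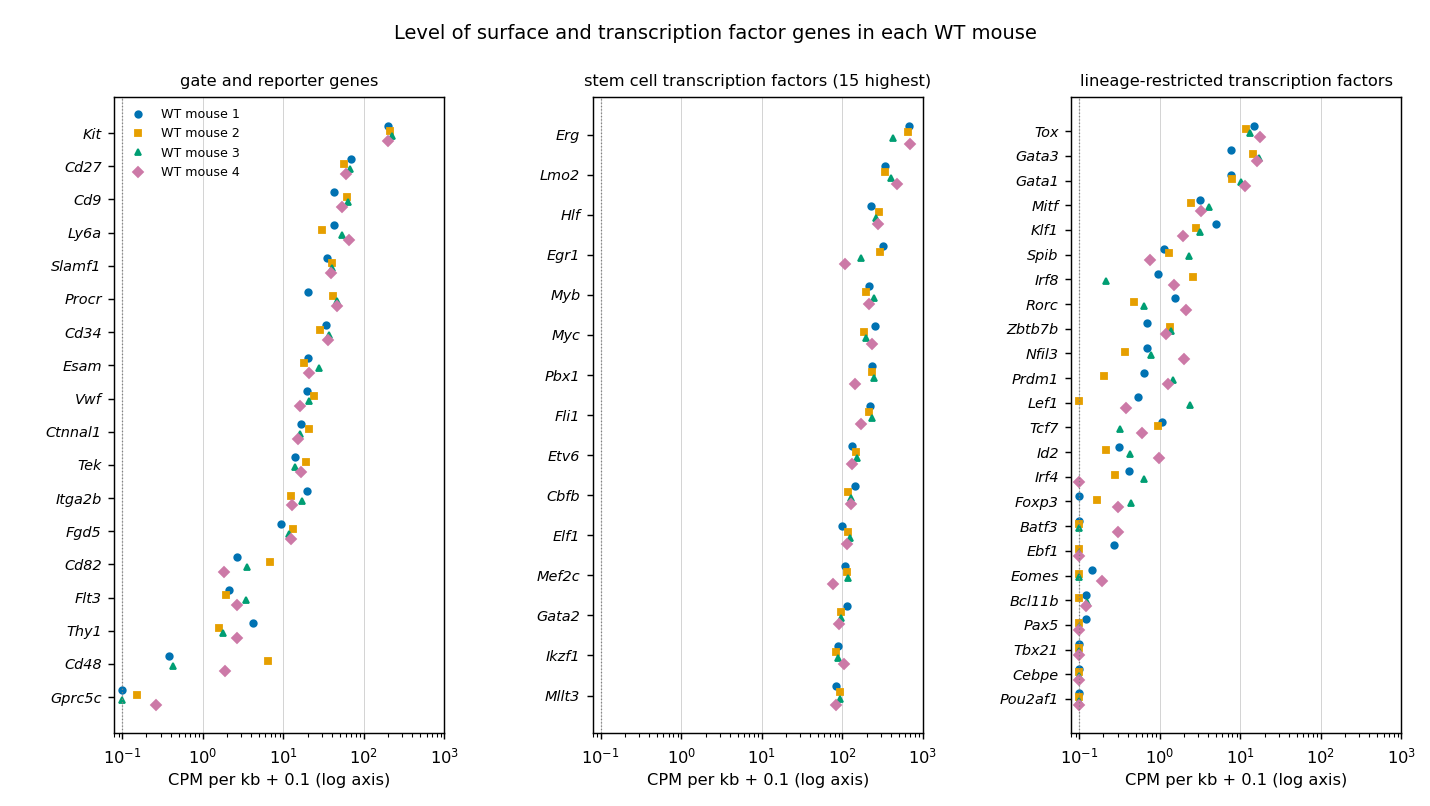
Level of each gene in each of the 4 WT mice, as CPM per kb + 0.1 on a log axis, for gate and reporter genes (left), the 15 highest stem cell transcription factors (middle) and lineage-restricted blood transcription factors (right); symbols mark the mice and the dotted line marks 0 counts. Kit and Erg lie at the top of their panels, and Tbx21, Cebpe and Pou2af1 lie at 0 in all 4 mice.

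Most cytokine and growth factor receptor genes were detected. Of 39 listed receptors 33 were expressed, with a median of 12.6 CPM per kb. Besides Kit, the highest included Igf1r, the receptor of insulin-like growth factor, at 59.1 ± 6.04 CPM per kb, the shared cytokine receptor chain Il2rg (49.5 ± 16.6) and the BMP receptor Bmpr2 (48.6 ± 2.42). Il7r, the lymphoid interleukin 7 receptor, was at 0 in all 4 mice. The TGF-beta receptors were unequal: the co-receptor Tgfbr3 held 42 ± 4.01 CPM per kb, against 10 ± 1.13 for Tgfbr1 and 9 ± 1.34 for Tgfbr2, the pair of signalling receptors, whose values overlapped.

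Adhesion and homing receptors were led by Gpr56, an adhesion G protein-coupled receptor, at 281 ± 21.9 CPM per kb and 1141, 1071, 1185 and 989.7 CPM. The integrin chains Itgb1 (103 ± 2.82), Itga4 (97.7 ± 7.82), Itga6 (83.7 ± 1.52) and Itgb3 (40.9 ± 13.2 CPM per kb) followed. Itgb1 and Itga4 form VLA-4, which binds VCAM1 in the niche. Itgb3 spread most of these, at 221, 238, 336 and 150.2 CPM, highest in mouse 3 and lowest in mouse 4. Of 32 homing and adhesion genes 28 were expressed, and Ccr7, the lymph node homing receptor, was at 0. Notch receptors were carried by Notch2, 89.9% of the family at 44.9 ± 4.33 CPM per kb, with Notch1 at 4.53 ± 0.311, Notch3 at 0.456 ± 0.354 and Notch4 at 0.0845 ± 0.0601. Among Wnt and Hedgehog receptors Lrp6 (28.8 ± 4), Smo (19.8 ± 4.61), Fzd7 (9.24 ± 1.03) and Fzd6 (8.81 ± 3.77 CPM per kb) were highest, and Fzd10 was at 0.

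The Janus kinases and the STAT factors described here were all detected. Jak1 held 113 ± 3.84 CPM per kb, Jak2, which also serves the erythropoietin receptor, 39.2 ± 5.34, Jak3 6.14 ± 1.29 and Tyk2 4.71 ± 0.247. Stat3 (45 ± 2.85) and Stat4 (41.4 ± 2.22 CPM per kb) lay within their spread of each other. Exons of Stat4 overlap another gene over 32.8% of their length, where reads may be ambiguous, so its level is uncertain. Stat5a (18.2 ± 0.798), Stat5b (15.9 ± 1.86), Stat6 (15.4 ± 1.76) and Stat2 (13.9 ± 4.1) were lower, with windows shared between the Stat5 copies (10.8% and 11.8%).

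Energy metabolism genes were broadly expressed, and the respiratory chain list had a higher median per kilobase than the glycolysis list. All 40 listed genes of oxidative phosphorylation were expressed, at a median of 44.5 CPM per kb, as were 24 of 25 citrate cycle genes (median 38.8) and 24 of 28 genes of glucose uptake and glycolysis (median 21.9). The ATP synthase subunits Atp5b (755 ± 125 CPM per kb) and Atp5a1 (314 ± 39.6) were the highest, then Uqcrh (154 ± 30.6) of complex III, Atp5c1 (138 ± 32.4) and Ndufa4 (114 ± 9.12). Sdha (161 ± 10.3) and Sdhd (138 ± 11.8) of succinate dehydrogenase led the citrate cycle, then Mdh2 (112 ± 18.9), Idh3g (94.6 ± 14.5) and Dld (70 ± 13.7 CPM per kb). Shared sequence bears on the glycolysis list: Gapdh (163 ± 37.6), Aldoa (59.6 ± 13.7) and Pkm (43.7 ± 5.12) have 27.2%, 13.5% and 30.5% of windows shared.

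Isozymes of glycolysis were unequal. Ldha, the lactate dehydrogenase chain that favours lactate, made up 88.9% of its family at 445, 348, 408 and 338 CPM per kb in mice 1 to 4, against 47.8 ± 11 for Ldhb, and the testis form Ldhc did not pass 1 count. Hexokinase came from Hk1 (24.2 ± 1.1 CPM per kb) and Hk2 (12.4 ± 2.98) with less Hk3 (4.4 ± 1.63). Glucose transport came from Slc2a3 (33.8 ± 9.53 CPM per kb) and Slc2a1 (12.2 ± 2.93), while the liver and fat carriers Slc2a2 and Slc2a4 reached at most 2 counts and 0 counts. Pkm made up 99.8% of pyruvate kinase, with the liver and red cell form Pklr at 0.239 ± 0.374 CPM. The pyruvate dehydrogenase kinases, which turn pyruvate away from the mitochondria, were Pdk3 (24.5 ± 2.4 CPM per kb), Pdk1 (18.6 ± 3.74), Pdk2 (12 ± 2.68) and, lowest, Pdk4 (0.649 ± 0.566).

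Fatty acid oxidation (18 of 20 genes expressed, median 28.1 CPM per kb) was led by the electron transfer flavoproteins Etfa (121 ± 24.3 CPM per kb) and Etfb (94.2 ± 5.5), and Cpt1a, which brings fatty acids into mitochondria, stood at 58.4 ± 10.5. All 23 redox genes were expressed, led by the superoxide dismutase Sod1 (501 ± 45.3 CPM per kb), the glutathione peroxidase Gpx1 (295 ± 23.3) and catalase, Cat (179 ± 17). All 22 genes of one-carbon and nucleotide synthesis were expressed, led by the purine enzyme Paics at 519 ± 52.8 CPM per kb and 1293, 1190.2, 1202 and 1474 CPM. All 18 lipid and sterol genes were expressed, with Scd2, a fatty acid desaturase, at 94.6 ± 5.56 CPM per kb and Acly at 39 ± 8.68.

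The machinery of protein synthesis stood highest of all lists. Translation factors had a median of 182 CPM per kb (24 of 24 expressed), chaperones 163 (18 of 20), cytosolic ribosomal proteins 143 (91 of 104, with 7 at 0) and cytoskeletal genes 78.2 (22 of 22). Among ribosomal proteins, Rpl4 (1404 ± 131 CPM per kb) was highest, and the next ones included Rps6, Rps3a1 and Rps4x, for which 55.1%, 71% and 72.2% of windows are shared. Mitochondrial ribosomal proteins had a median of 10.96 CPM per kb (75 of 77) and proteasome subunits 32.6 (38 of 39). Actin, Actb, stood at 722 ± 45.8 CPM per kb, moesin, Msn, at 345 ± 50.9 and thymosin beta 4, Tmsb4x, at 329 ± 32.

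**Figure D3:**
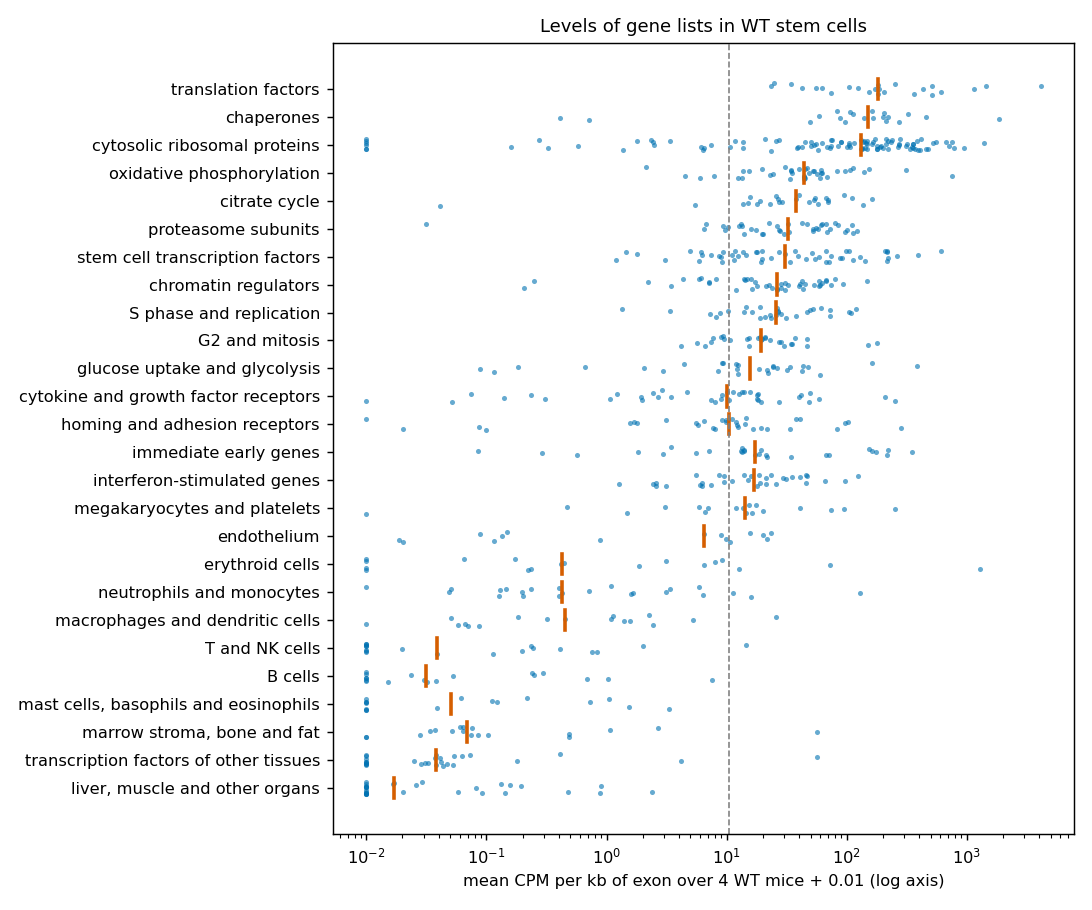
Mean level over the 4 WT mice of each member of 26 gene lists, as CPM per kb + 0.01 on a log axis (points), with the list median (orange bars) and the median of all expressed genes (dashed line, 10.4 CPM per kb). Translation factors, chaperones and ribosomal proteins lie to the right, and most markers of T, B and mast cells and of other organs lie near 0.

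Chromatin genes were expressed as a group (42 of 44, median 27.4 CPM per kb). The remodeller Chd4 (147 ± 19.8 CPM per kb), the maintenance DNA methyltransferase Dnmt1 (93.9 ± 5.23), the H3K36 methyltransferase Nsd1 (80.5 ± 11.1) and the Polycomb subunit Suz12 (67.6 ± 3.87) were among the highest. Dnmt3a (32.2 ± 3.72) and Dnmt3b (30.8 ± 5.59), which set new methylation, lay within their spread of each other, and the germline cofactor Dnmt3l was at 0. Tet1 (28.4 ± 4.51) exceeded Tet2 (16.4 ± 2.53) in all 4 mice, and Tet2 and Tet3 (16 ± 3.08) were not separated. Ezh2 (60.4 ± 10.2) made up 89.4% of the H3K27 methyltransferase pair, with Ezh1 at 7.16 ± 2.28 CPM per kb.

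The 3 demethylase genes that the study deletes in its other mice were unequal in WT cells. Kdm4c made up 73.4% of the KDM4 family, at 22.3, 25.8, 34.2 and 23.8 CPM per kb in mice 1 to 4. Kdm4a stood at 5.86, 6.93, 9.95 and 5.99 and Kdm4b at 2.59, 1.46, 2.23 and 2.6 CPM per kb. The order Kdm4c, Kdm4a, Kdm4b held in all 4 mice, and Kdm4d, a relative that the study leaves in place, lay near the floor at 0.169, 0, 1.77 and 0.165 CPM. All 3 encode demethylases of lysines of histone H3.

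Transcripts of cell division were present at levels above the median gene. All 30 S phase and replication genes were expressed (median 26.0 CPM per kb), led by Pcna (119 ± 18.9 CPM per kb), Mcm6 (108 ± 13.7), Rrm1 (104 ± 17.4), Mcm4 (73 ± 8.2) and Mcm3 (72 ± 5.27). All 29 G2 and mitosis genes were expressed (median 19.2). Mki67, a nuclear protein of cycling cells, lay at 1877, 1565, 1583 and 2189 CPM and the topoisomerase Top2a at 766, 731, 704 and 939.9 CPM, both highest in mouse 4. Kif11 (46.8 ± 8.07), Ccnb2 (46.7 ± 7.55) and Nusap1 (37.2 ± 9.98 CPM per kb) followed. A bulk library does not give the share of cells in division.

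A mixed list of cell cycle regulators was expressed beside them (22 of 24). It holds cell cycle inhibitors and also genes that promote the cycle, such as Ccnd2 and Cdk6. Ccnd2, the main D cyclin, made up 74.2% of its family at 162, 201, 139 and 158 CPM per kb, with Ccnd1 at 45.1 ± 13.9 and Ccnd3 at 12.4 ± 5.14. Of the CIP/KIP inhibitors, Cdkn1c (p57), linked to stem cell quiescence, stood at 10.2 ± 1.27 CPM per kb and Cdkn1b (p27) at 6.72 ± 2.74, with Cdkn1a (p21) at 2.06 ± 0.891. Cdkn1c exceeded Cdkn1b in 3 of 4 mice. Exons of Cdkn1c overlap another gene over 30.3% of their length, where reads may be ambiguous, so this order is uncertain. The INK4 genes Cdkn2a and Cdkn2b, which rise in ageing and stress, were at 0. Txnip (144 ± 35), Trp53 (127 ± 13.1), Ccng1 (98.3 ± 2.81) and Cdk6 (63 ± 5.01 CPM per kb) were the highest of the list after Ccnd2.

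Survival genes were led by Mcl1 at 180.0 ± 27.7 CPM per kb and Bcl2 at 66.6 ± 4.93, which made up 70.5% and 26.1% of the anti-apoptotic family. Bcl2l2 (5.11 ± 1.6) and Bcl2l1 (3.45 ± 1.39) were low. Bcl2a1a, Bcl2a1b and Bcl2a1d did not pass 1 count, and 69%, 57.5% and 79.5% of their windows are shared, so their level is uncertain. The chromatin protein gene Hmga2, high in fetal stem cells, was at 35.5 ± 11.7 CPM. Its RNA regulator Lin28b lay at 7.79, 0.278, 0.197 and 2.81 CPM in mice 1 to 4, above the 3-count floor in mice 1 and 4, and Lin28a was at 0. Hmga1 did not pass 1 count, with 69.1% of windows shared.

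Genes of mature blood cells were examined to describe other cells in the sort. B cell genes were close to 0: 2 of 18 were expressed, their sum was 12.5 to 18.7 CPM, and Igll1, Blk, Cd22, Il7r and Dntt were at 0 in all 4 mice. The expressed ones were Cd79b, at 9.66, 10.6, 12 and 11.3 CPM and so most of the sum, and Fcer2a at 1.6 ± 0.45 CPM. T and NK cell genes summed to 13.1 to 42.7 CPM with 2 of 19 expressed, Nkg7 at 19.7, 4.45, 13.8 and 13.4 CPM and Klrb1c at 9.15, 2.78, 3.74 and 5.63 CPM. Cd3e, Cd3g, Cd8b1, Zap70, Gzma, Klrd1, Ncr1 and Prf1 were at 0. Mast cell, basophil and eosinophil genes summed to 3.90 to 18.4 CPM, with Cpa3 expressed at 1.52, 9.18, 5.31 and 3.14 CPM and Prg2, of eosinophil granules, at 0, 17, 1 and 1 counts. Mcpt4, Tpsb2, Tpsab1, Cma1, Ear1, Ear2 and Ear6 were at 0.

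Myeloid genes were low but not absent. Of 23 neutrophil and monocyte genes 7 were expressed, and the list summed to 239 to 299 CPM. Lyz2, lysozyme, supplied most of it at 135, 169, 213 and 168 CPM, and Csf3r, the G-CSF receptor, stood at 39.7 ± 7.52 CPM. The granule protease gene Prtn3 lay at 10, 17.5, 15.5 and 22 CPM and Mpo, myeloperoxidase, at 23.7, 17.8, 10 and 16.9 CPM, while S100a9 was at 4.07, 1.39, 0.197 and 7.61 CPM and Fcnb at 0. Macrophage and dendritic cell genes summed to 56.8 to 79.9 CPM with 6 of 17 expressed, and Siglech was at 0. The highest per kb were, in order, Bst2 (20.3 ± 4.64 CPM), Cd68 (6.61 ± 3.37 CPM), Flt3, given above, and Cd163 (10 ± 4.01 CPM).

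The erythroid and megakaryocyte lists had the highest sums of the lineage lists. Of 20 erythroid genes only 8 were expressed and 6 were at 0. Those at 0 include the globin gene Hba-a1, whose level is uncertain through shared sequence, as given above. The expressed ones had a median of 8.59 CPM per kb, below the 10.4 of all expressed genes. The erythroid list summed to 2462 to 2725 CPM, of which Car2 made up most. Hemgn (184 ± 29.2 CPM), the transferrin receptor gene Tfrc (65.7 ± 12.2 CPM), Gata1 (17.4 ± 3.45 CPM) and the erythropoietin receptor gene Epor (11, 15, 25.6 and 4.8 CPM) were also expressed, while Alas2, of haem synthesis, was at 3.77 ± 1.98 CPM. Of 18 megakaryocyte and platelet genes 15 were expressed, summing to 1509 to 2024 CPM. Pf4, platelet factor 4, lay at 67.4, 78.5, 59 and 59.2 CPM, and Plek (319.9 ± 88.9 CPM), Itgb3 and Vwf were expressed. Gp6, the platelet collagen receptor, was at 0. Vwf, Itga2b and Itgb3 are also transcripts of stem cells themselves.

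Genes of marrow stroma, bone and fat were mostly low, and those of endothelium were partly expressed. Of 18 genes of marrow stroma, bone and fat 3 were expressed, Runx2, Col1a2 (21, 16.4, 10.6 and 9.1 CPM) and Pdgfrb (6.78, 1.95, 9.83 and 4.47 CPM), and Runx2 alone made up most of the summed 396 to 443 CPM. Cxcl12 (0.194 CPM) and Col1a1 (0.245 CPM) lay below the floor in their means, and Sp7 and Acan were at 0. Of 15 endothelial genes 9 were expressed, with a sum of 507 to 582 CPM, among them Eng (83.9 ± 11 CPM), Esam, Tek and Tie1 (48.2 ± 7.27 CPM), which stem cells share with endothelium. Emcn was at 23.1 ± 2.63 CPM, and Cdh5, the vascular cadherin, had 0, 0, 0 and 1 counts in mice 1 to 4.

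Genes of distant organs were mostly near 0, though Mbp of the neural list was not. Of 29 genes of liver, muscle and other organs only Afp, at 7.46, 4.45, 3.15 and 4.47 CPM, was expressed, and the list summed to 8.26 to 22.5 CPM. Ttr, Cyp3a11, Ckm, Tnnt2, Ins2, Gcg, Nphs1, Sftpc, Scgb1a1, Krt14, Muc2, Pou5f1 and Tnp1 were at 0. Of 14 neural genes 2 were expressed, among them the myelin gene Mbp, at 112, 88.8, 107 and 97 CPM, and Rbfox3, Gad1 and Gad2 were at 0. Of 1122 olfactory receptor symbols 1011 were at 0 and 1 was expressed, Olfr248 at 2.03, 9.46, 3.15 and 1.49 CPM. Of 338 vomeronasal receptors 315 were at 0, of 105 keratin and keratin-associated symbols 87, with Krt18 expressed at 11.2, 21.4, 24.6 and 24 CPM, and of 61 defensins 60.

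Genes of the Y chromosome were expressed in each mouse. The Y genes Ddx3y (84.2, 83.7, 80.8 and 137 CPM), Eif2s3y (58.3, 69, 50.3 and 108 CPM), Kdm5d (84.4, 121, 114 and 117 CPM) and Uty (63.9, 67.6, 68.2 and 66.2 CPM) were all at 1 CPM or more, and Ddx3y and Eif2s3y were highest in mouse 4. Xist, which coats the inactive X, stood at 1.86, 4.45, 3.54 and 2.65 CPM. Genes of the X had a median of 11.4 CPM per kb (368 expressed protein-coding genes), against 10.7 for 10172 genes of autosomes. Among imprinted genes 14 of 23 were expressed, led by Grb10 (104 ± 9.16 CPM per kb), Gnas (65.4 ± 10.2) and Sgce (18.7 ± 4.05), and Mirg, Snrpn and Zim1 were at 0. Exons of Snrpn overlap another gene over 21.9% of their length, where reads are ambiguous.

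The spread among the 4 mice was measured in 11411 genes with at least 40 counts in all. For 9469 of them (83.0%) the 4 counts differed by more than Poisson counting noise (chi-square test, Benjamini-Hochberg adjusted p under 0.05), and the share was 74.5% under 10 CPM, 83.3% at 10 to 100, 91.9% at 100 to 1000 and 100% at 1000 CPM or more. Amplification without molecular identifiers can add to this spread, and its part was not tested. The median coefficient of variation (CV) of CPM was 47.3% for genes under 10 CPM, 21.5% at 10 to 100, 11.5% at 100 to 1000 and 8.25% at 1000 CPM or more. A second test therefore asked which genes spread more than others of the same level, by fitting edgeR's trended dispersion and testing each gene's goodness of fit. It called 37 genes (0.324%) at an adjusted p under 0.05, and 22 of them had a mean of 10 CPM or more. With 3 mice the test called 29 without mouse 1, 14 without mouse 2, 28 without mouse 3 and 12 without mouse 4, so the count rests on mice 2 and 4 in particular. The libraries are from separate mice, so the spread between animals, sorts and library preparations cannot be told apart.

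**Figure D4:**
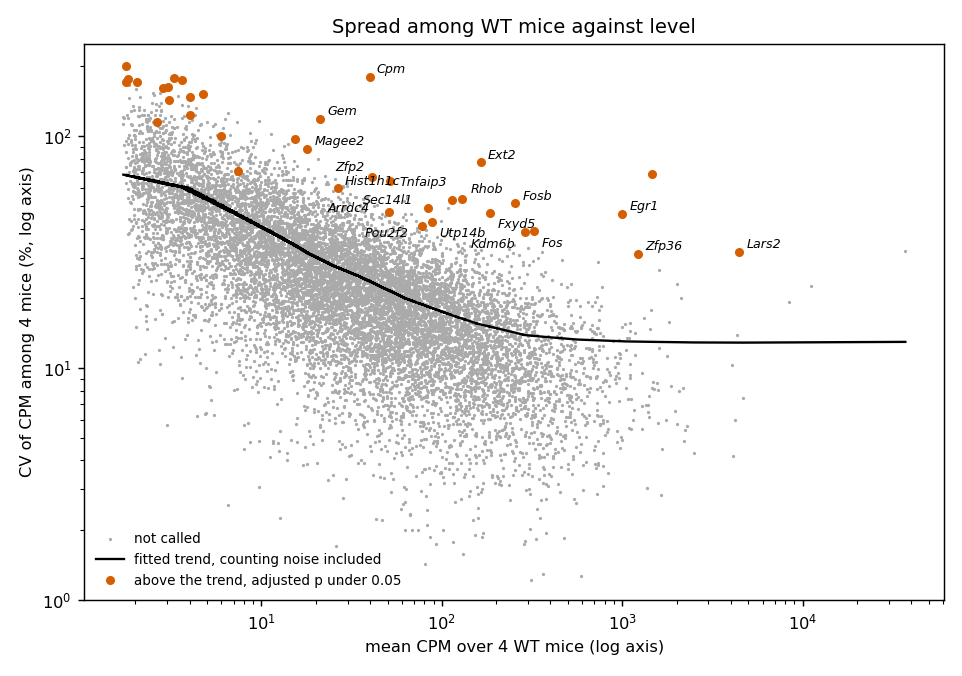
CV of CPM among the 4 WT mice (%, log y axis) against mean CPM (log x axis) for 11411 genes; the line is edgeR's fitted trend with counting noise added, and orange points are the 37 genes above it at an adjusted p under 0.05. Cpm, Ext2, Egr1, Fosb and Lars2 lie far above the line for their level.

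The smallest p belonged to the gene Cpm, which encodes carboxypeptidase M, a membrane-bound peptidase (chr10:117629500-117687352 in the GENCODE annotation of GRCm38, taken as mm10). Its values were 2.2, 147, 7.27 and 1.99 CPM in mice 1 to 4. Mouse 2 alone was high, and mouse 3 came next (edgeR goodness of fit, adjusted p = 6.97e-38). Ext2, a glycosyltransferase of heparan sulfate synthesis (chr2:93661028-93822568), lay at 69.6, 183, 336 and 68 CPM, with mouse 3 and then mouse 2 above mice 1 and 4 (adjusted p = 7.43e-13, same test). Gem, a small GTPase gene, was high in mouse 4 only, at 11, 7.79, 6.49 and 59.1 CPM (adjusted p = 2.49e-05). The call of Cpm was lost without mouse 2 (adjusted p = 0.998) and that of Gem without mouse 4, while Ext2 passed under all 10 alternatives tried. These 3 genes overlap no other gene's exons in the annotation, and the basis of each difference was not tested.

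Immediate early genes, which answer stimuli within minutes and without new protein synthesis, were the list with the most called genes. Of 24 tested, 4 were called, against 0.324% of all genes tested: Egr1, Fosb, Fos and Zfp36. Egr1 lay at 1427, 1326, 754 and 484 CPM in mice 1 to 4 (adjusted p = 3.52e-06, edgeR goodness of fit). Fosb lay at 346, 389, 152 and 137 CPM (adjusted p = 4.44e-06) and Fos at 435, 415, 273 and 175 CPM (adjusted p = 0.00324, same test). In all 3 genes mice 1 and 2 were high and mouse 4 was lowest. Zfp36, an RNA-binding protein that shortens cytokine messages, lay at 1431, 1517, 1263 and 688 CPM (adjusted p = 0.029), with mouse 4 apart from the other 3 mice. Without mouse 4 the calls of Egr1 (adjusted p = 0.129), Fos (adjusted p = 0.62, same test) and Zfp36 were lost, and Fosb passed under all 10 alternatives.

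Of the other 20 immediate early genes, which did not pass the test, 14 were lowest in mouse 4 and 11 were highest in mouse 2. In all expressed genes 19.2% were lowest in mouse 4 and 24.7% were highest in mouse 2. Over the 24 genes, the mean deviation of log2 CPM from each gene's mean was 0.04, 0.40, 0.01 and -0.45 in mice 1 to 4, so mouse 1 lay near mouse 3 in the list mean. Klf2 (37.6, 31.7, 17.9 and 11.4 CPM), Klf4 (33.7, 23.6, 19.1 and 10.1 CPM) and Egr3 (31.7, 38.1, 11.6 and 9.93 CPM), named after their values were seen, were also lowest in mouse 4. Jun (477, 583, 575 and 455 CPM), Dusp1 (445, 506, 386 and 315 CPM) and Myc (623, 452, 484 and 564 CPM) spanned less, at 1.28-fold, 1.6-fold and 1.38-fold between highest and lowest, and Myc was highest in mouse 1. Nfkbia, which encodes an inhibitor of NF-kB and was named after its values were seen, lay at 13.6, 23.1, 23.2 and 28.6 CPM and was highest in mouse 4. Tnfaip3, another NF-kB inhibitor gene outside the list, was called above the trend (adjusted p = 0.0382, edgeR goodness of fit). It was high in mouse 2 only, at 30.3, 102, 36 and 38.5 CPM, and the call was lost without mouse 2, without mouse 4 and with a minimum of 4 counts.

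Promoters of Fos and Zfp36 are shown because both genes were called above the trend and hold a searched motif close to the start. The motifs searched were TATAAA on the coding strand, TGACGTCA, the cyclic AMP response element, which reads the same on both strands, the CArG box bound by serum response factor, on both strands, and GAAANNGAAA, described below. GAAANNGAAA was found in 1 of 22, the promoter of Fosl2. In the 300-base windows the CArG box was found in 1 of 22 immediate early promoters and in 1.48% of all 16957, and TGACGTCA in 2 of 22, Dusp1 and Btg2, and in 2.38% of all. TATAAA anywhere in the window was found in 2 of 22 and in 8.50% of all. The capitals mark TATAAA in Fos (chr12:85473640-85473889, plus strand), which begins 33 bases before the start, and the CArG box in Zfp36 (chr7:28379229-28379478, minus strand), which begins 58 bases before it; the 2 sites do not overlap other motifs searched.
Fos: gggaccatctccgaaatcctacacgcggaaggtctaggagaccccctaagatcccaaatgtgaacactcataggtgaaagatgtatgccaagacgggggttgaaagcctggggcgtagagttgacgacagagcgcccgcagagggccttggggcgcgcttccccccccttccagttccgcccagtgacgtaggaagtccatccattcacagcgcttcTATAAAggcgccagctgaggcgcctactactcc
Zfp36: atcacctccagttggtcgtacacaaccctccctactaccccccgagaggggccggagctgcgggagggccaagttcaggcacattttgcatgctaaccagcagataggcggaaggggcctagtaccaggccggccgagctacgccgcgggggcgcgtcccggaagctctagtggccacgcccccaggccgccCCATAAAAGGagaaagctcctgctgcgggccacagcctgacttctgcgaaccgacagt

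Interferon-stimulated genes, which encode antiviral proteins, were highest in mouse 4 as a list. All 34 were expressed, at a median of 16.9 CPM per kb, and none of the 34 was called above the trend. Of the 34, 27 were highest in mouse 4, against 27.5% of all expressed genes, and the mean deviation of their log2 CPM was -0.19, -0.28, 0.00 and 0.46 in mice 1 to 4. Lgals3bp (124 ± 22.1 CPM per kb), Oasl2 (96.6 ± 19.2), Eif2ak2 (66.1 ± 10.2), Ifi44 (46.3 ± 14.5) and Trim30a (46.2 ± 2.57) were the highest. Oasl2 lay at 237, 282, 308 and 379.7 CPM and Ifi44 at 129, 93.5, 123 and 194 CPM. Rsad2 (46.1, 49.8, 77.3 and 116 CPM), Ifit1 (50.5, 70.1, 72.5 and 118 CPM) and Rtp4 (22.5, 17.2, 26.7 and 57.2 CPM), named after their values were seen, reached their highest values in mouse 4, while Trim30a (169.8, 184, 163 and 179.8 CPM) and Ifit2 (69.8, 64.3, 74.7 and 66 CPM) were nearly level.

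Their promoters were unlike those of other expressed genes. Only 16% of 25 were CpG-rich, against 75.6% of expressed genes and 81.8% of 22 immediate early promoters. The core of the interferon-stimulated response element, GAAANNGAAA on either strand, was found in 13 of 25 of these 300-base windows and in 3.33% of all 16957. The windows of Ifit1 (chr19:34640639-34640888, plus strand) and Rsad2 (chr12:26456453-26456702, minus strand), which encodes the antiviral enzyme viperin, are shown with this motif in capitals, since both genes were highest in mouse 4. It reads TTTCNNTTTC here, on the strand of the gene. Ifit1 holds 2 copies, beginning 104 and 85 bases before the start, and Rsad2 holds 1, beginning 120 bases before it; none overlaps another motif searched. A match is a description of the letters and not evidence of binding.
Ifit1: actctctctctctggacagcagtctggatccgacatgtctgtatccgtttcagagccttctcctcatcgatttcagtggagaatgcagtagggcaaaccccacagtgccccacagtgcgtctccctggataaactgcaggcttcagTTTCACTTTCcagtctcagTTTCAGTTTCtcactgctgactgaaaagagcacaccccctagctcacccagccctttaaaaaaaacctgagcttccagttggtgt
Rsad2: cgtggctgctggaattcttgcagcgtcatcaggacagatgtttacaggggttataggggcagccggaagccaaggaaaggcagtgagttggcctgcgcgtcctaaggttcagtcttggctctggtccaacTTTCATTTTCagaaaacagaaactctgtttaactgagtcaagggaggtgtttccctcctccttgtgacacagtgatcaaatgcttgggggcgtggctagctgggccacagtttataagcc

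Other lists were also compared between mice. In all expressed genes 27.5% were highest and 19.2% were lowest in mouse 4. G2 and mitosis genes were highest in mouse 4 in 23 of 29 cases, with mean deviations of -0.06, -0.08, -0.15 and 0.30 on the log2 scale, and oxidative phosphorylation genes in 27 of 40, with -0.04, -0.07, -0.12 and 0.23. S phase genes stood higher in mice 1 and 4, with 0.19, -0.18, -0.15 and 0.15. Lipid and sterol genes were lowest in mouse 4 in 12 of 18 cases, with 0.09, 0.10, 0.04 and -0.23. Stem cell transcription factors were nearly level, with -0.03, 0.01, 0.03 and -0.01, as were cytokine receptors, with -0.03, -0.09, 0.04 and 0.07. None of the 17 gate and reporter genes tested, all but Gprc5c, was called above the trend, and of the genes tested in these 6 lists none was except Egr1, which the stem cell factor list shares with the immediate early list. The part of depth or RNA quality in these differences was not tested; mouse 2 had the fewest counts, and the shares of Rn45s were highest in mice 1 and 3.

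**Figure D5:**
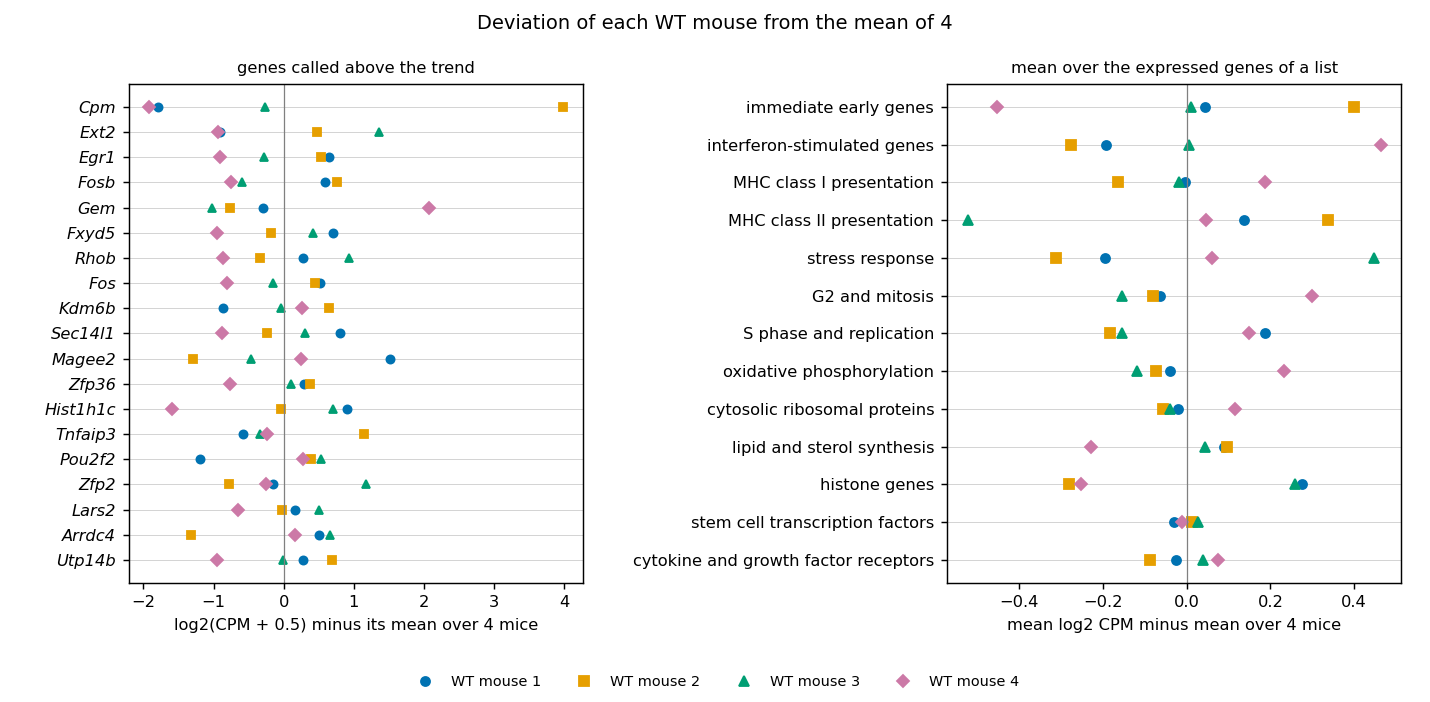
Deviation of each WT mouse from the mean of the 4 on a log2 scale, for the 19 named genes above the trend (left, log2 of CPM + 0.5) and for the mean over the expressed genes of 13 lists (right, log2 CPM); symbols mark the mice. Mouse 4 lies lowest for immediate early genes (-0.45) and highest for interferon-stimulated genes (0.46), and mouse 2 lies far to the right for Cpm.

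Of the 19 named genes above the trend, 12 were lowest in mouse 4 and 1, Gem, was highest there. In all expressed genes 19.2% were lowest and 27.5% were highest in mouse 4. Of all 37 called genes 16 were lowest in mouse 4, but of the 15 called genes under 10 CPM only 2 were. Fxyd5, a regulator of the sodium pump, lay at 276, 149, 227 and 87.4 CPM and Rhob, an early-response GTPase, at 140.5, 91.8, 221 and 63.4 CPM (edgeR goodness of fit, adjusted p = 0.000334 for both). Kdm6b, the inducible H3K27 demethylase, lay at 149, 422, 263 and 323 CPM, lowest in mouse 1 (adjusted p = 0.00677, same test). Leaving out 1 mouse ended the calls of Fxyd5 (without mouse 4, adjusted p = 0.443), Rhob (without mouse 3 or 4) and Kdm6b (without mouse 1 or 2). Sec14l1 (133, 64.5, 94.6 and 41.2 CPM), the linker histone gene Hist1h1c (41.5, 21.4, 36.2 and 6.95 CPM) and Utp14b (99.3, 132, 80.8 and 41.9 CPM) were lowest in mouse 4. Magee2 (40.2, 5.29, 9.83 and 16.4 CPM) was highest in mouse 1, and Pou2f2, the lymphoid factor OCT2, was lowest there at 30.5, 92.9, 102 and 85.5 CPM. Zfp2 (32, 20.6, 81.2 and 29.8 CPM) was highest in mouse 3, and Arrdc4 (64.2, 17.8, 71.4 and 50.3 CPM) was lowest in mouse 2. The calls of these 7 genes, Sec14l1 to Arrdc4, were each lost without at least 2 of the mice in turn.

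Lars2, the mitochondrial leucyl-tRNA synthetase, was the most abundant of the called genes, at 4763, 4204, 6046 and 2724 CPM in mice 1 to 4 (adjusted p = 0.0481, edgeR goodness of fit). This call was lost under 5 of 10 alternatives, namely library totals without TMM scaling, a minimum of 4 counts, and without mouse 2, 3 or 4 (largest adjusted p = 0.942, same test). Mice 1 and 3 were above mice 2 and 4. The microRNA symbol Mir6236, at 2286, 717, 2375 and 501 CPM, had the same division (adjusted p = 3.37e-19, same test) and passed under all 10 alternatives. It was named after its values were seen. Rn45s, at 48471, 31734, 44227 and 23847 CPM, had it too and missed the threshold (adjusted p = 0.0525, same test). Why Lars2, Mir6236 and the ribosomal RNA precursor share this division was not tested. The 15 called genes under 10 CPM rested on few counts, as in Kcnn3, at 42, 0, 0 and 0 counts, named after its values were seen.

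At the other end, 8 genes at 100 CPM or more were chosen for the smallest SD of log2 CPM, among them Pcyt1a, Dido1, Rock1, Slc38a2, Fry, Efcab14 and Crk. Pcyt1a, of phosphatidylcholine synthesis, lay at 148, 150.2, 145 and 148 CPM in mice 1 to 4. Rock1, a kinase of the actin cytoskeleton, lay at 386, 376, 372 and 384 CPM. Dido1 (375 ± 6.04 CPM), Slc38a2 (557 ± 9.41 CPM), Fry (118 ± 2.07 CPM), Efcab14 (405 ± 7.18 CPM) and the adaptor Crk (156 ± 2.81 CPM) spread as little. They were chosen for evenness among 4 values, so this describes these libraries and was not tested.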

How the data were processed

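RNA of sorted stem cells from 4 WT mice was amplified (Nugen Ovation RNA-seq System V2) and sequenced on a Nextseq 500, per the labels' protocols. The deposited values are counts per gene symbol, made by the authors with STAR (2.4.0d-2) and htseq-count (Galaxy 0.6.1galaxy1) on mm10, per the submitters' processing notes. Neither the annotation nor the strand setting of the counting is stated in the labels, so antisense and overlapping genes are uncertain. Library totals were 3594315 to 6044289 counts, and no pair of libraries agreed within sampling noise (chi-square per degree of freedom 10.9 to 20.2).

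CPM was computed from library totals, and lengths from GENCODE vM21 exons: 23053 symbols matched directly, 811 by synonym and 358 not at all. Spread beyond counting noise was tested by chi-square on counts with TMM-scaled totals. Spread above the trend was tested with edgeR (4.0.16) by goodness of fit to the trended dispersion, over 11411 genes with at least 40 counts, with Benjamini-Hochberg adjustment. On simulated counts of 11205 genes, 13% of genes changed 2-fold and 77% of genes changed 4-fold in 1 mouse were called.

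Named genes are the 12 highest by CPM and per kb, all stem cell gate genes, up to 5 highest members of each list and those at 0 in lists of other tissues, whole families, up to 20 genes above the trend at 10 CPM or more, and the 8 most even genes at 100 CPM or more. Pseudogenes, provisional symbols and, among the highest genes, those under 300 exon bases or of ribosomal RNA were left out, and genes outside this rule are said to be so or belong to the marker genes of cell types. Some genes that this rule names are not reported here. The members and all lists were chosen with earlier results of these data known. Alternatives changed the filter, the normalization and the mice included.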

Additional observations from a re-analysis of the deposited data

Results flagged for a closer look

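Each of 404 sets of 4 values, 1 per mouse, was examined for a mouse that lay far from the other 3, by the ratio of its gap to the whole range. This marked 27 sets. Chance marks about 1 in 20 sets of ordinary values, a rate that cannot be set against this count: 11 of the 27 hold counts in 1 mouse only, where the ratio is at its highest by construction, and some other genes were named for their spread. In 9 of them mouse 4 stood apart, in 7 mouse 2, in 6 mouse 3 and in 5 mouse 1. No cause was tested for any of them.

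Mouse 2 stood high for Cpm at 147 CPM, with the next mouse at 7.27, for Tnfaip3 at 102 CPM, for Malat1 at 15007 CPM, for Id1 at 6.68 CPM and for the eosinophil gene Prg2 at 4.73 CPM. Mouse 3 stood low for Erg at 1482 CPM, where the next mouse was at 2252, and for Pdk1 at 67.8 CPM. It stood high for Hnf4a at 26.7 CPM, Ndufa4 at 79.4 CPM and Kdm4d at 1.77 CPM. Mouse 4 stood high for Gem at 59.1 CPM and for the Y gene Ddx3y at 137 CPM. Mouse 1 stood low for Slamf1 at 94.7 CPM, where the next mouse was at 106, and for the complex III subunit Uqcrh at 59.5 CPM.

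As list means of log2 CPM deviations, mouse 4 stood high for fatty acid oxidation at 0.21 and low for lipid and sterol synthesis at -0.23.

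The other 11 sets were genes with a count in 1 mouse only. Kcnn3 reached 7.12 CPM in mouse 1, where Mycl and Pax5 were each at 0.169 CPM from 1 count. Gata5 at 0.278 CPM and Gata6 at 0.556 CPM had counts in mouse 2, and Hmga1 at 0.197 CPM in mouse 3. Ikzf3 at 0.496 CPM and Bcl2a1a, Bcl2a1b, Cdh5 and Ldhc, each at 0.165 CPM, had counts in mouse 4.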

How the results depend on the processing

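The count of genes spreading above the trend, 37, depended most on the processing. It was 20 with a minimum of 4 counts in total, where 14424 genes were tested and 18 of the 37 calls were kept, and 23 with a minimum of 200 counts, where 20 were kept. Leaving out 1 mouse at a time gave 12 to 29 genes, with fewer samples in each fit. It was 32 with library totals, 37 with DESeq2's size factors or without Rn45s, 30 with counts thinned to the smallest library, and 30 by DESeq2's dispersion outliers, of which 26 were among the 37. At an adjusted p under 0.1 it was 53. Of the 19 named genes, Ext2 and Fosb passed under all 10 alternatives of this test.

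Spread beyond counting noise ranged from 7363 to 11049 genes, expressed genes from 8991 to 11500, genes at 0 from 7690 to 10287 and genes carrying 50% of the counts from 833 to 924. TMM scaling moved library totals by factors of 0.977 to 1.02. Depth limits levels near 1 CPM most, where a level rests on few counts. Of 359 named genes, 13 moved by over 1 SD in mean CPM when Rn45s was removed, which raises every other level, and 2 of 360 when counts were thinned. Of 41 list medians per kb, 5 moved by over 1 SD with the longest transcript as length, and up to 2 when 1 mouse was left out. No paired analysis was possible because only the WT mice are described and no groups are compared.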

Other observations

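Antigen presentation genes differed by class. All 11 genes of MHC class I presentation were expressed, and after B2m the heavy chains H2-K1 (951 ± 81.9 CPM per kb) and H2-D1 (224 ± 22.2), the immunoproteasome subunit Psmb8 (83.9 ± 3.98) and H2-T23 (67.4 ± 13.6) were highest. For H2-K1, H2-D1 and H2-T23, 8.11%, 14.3% and 16% of windows are shared with other transcripts, so their levels are uncertain. The 7 class II genes, a mark of antigen-presenting cells, were all expressed at a lower sum of 131 to 215 CPM. The invariant chain gene Cd74 lay at 62.2, 33.9, 18.3 and 32.9 CPM in mice 1 to 4, highest in mouse 1, and the class II beta chain gene H2-Ab1 lay at 54.9, 44.8, 30.9 and 55.1 CPM. The median CV of the 7 genes was 48.0%, against 26.4% for the trend at their levels, and none passed the test above the trend.

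Of 15 stress-response genes 9 were expressed, and 5 of the 9 were highest in mouse 3, against 24.4% of all expressed genes. Their mean deviations of log2 CPM were -0.19, -0.31, 0.45 and 0.06 in mice 1 to 4. Atf4, the factor of the integrated stress response, lay at 109, 148, 107 and 118 CPM, the mTOR inhibitor gene Ddit4 at 17.3, 23.6, 22 and 21.2 CPM, and Gadd45a, of the DNA damage response, at 6.44, 16.1, 24.6 and 10.4 CPM. Among 21 long noncoding RNAs 19 were expressed, led after Malat1 and Gas5 by the small nucleolar RNA hosts Snhg1 (111 ± 24.1 CPM per kb), Snhg8 (105 ± 28.6) and Snhg5 (55.3 ± 14.8). Of 68 histone genes 25 were expressed and 10 were at 0. Their mean deviations were 0.28, -0.28, 0.26 and -0.25 in mice 1 to 4. Of the 25, 11 were lowest in mouse 4 and 12 highest in mouse 1, against 19.2% and 23.4% of all expressed genes. Hist1h1e, a linker histone gene, lay at 101, 89.6, 114 and 79.4 CPM.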
